A study of Rattus norvegicus with 33 samples.

Results

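A set of 7 mature miRNAs of the related miR-17/92, miR-106b/25 and miR-106a/miR-363 clusters were followed in the plasma of rats with drug- or toxicant-induced liver injury. They were taken by name from the count tables: rno-miR-25-3p, rno-miR-93-5p and rno-miR-106b-3p of miR-106b/25, rno-miR-92a-3p, rno-miR-20a-5p and rno-miR-19b-3p of miR-17/92, and rno-miR-363-3p of the X-linked miR-106a/miR-363 cluster. These are 7 of the 462 miRNAs listed in any of the 6 tables, and each is among the 264 listed in all of them. The name of the set covers 6 of the 7 by position, since miR-363-3p has its hairpin only in the third cluster, and the mature miR-19b-3p and miR-92a-3p are encoded in both miR-17/92 and miR-106a/miR-363.

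All animals were male Sprague-Dawley rats obtained at 6 weeks of age, with 5 rats per group, dosed by stomach tube. Hepatocellular injury was made with acetaminophen (APAP, 1500 mg/kg, after a fast of 12 h) or thioacetamide (TAA, 100 mg/kg), both in carboxymethylcellulose, with plasma at 3, 6, 12 and 24 h. Cholestasis was made with α-naphthylisothiocyanate (ANIT, 150 mg/kg in corn oil) or 4,4'-methylenedianiline (MDA, 250 mg/kg in carboxymethylcellulose), with plasma at 3, 6, 12, 24 and 48 h, and steatosis with daily carbon tetrachloride (CCl4, 300 mg/kg in corn oil, Day 1, 3 and 5) or daily dexamethasone (DEX, 15 mg/kg in corn oil, Day 1, 2 and 3). The tables hold 29 libraries, 24 treated and 5 vehicle, because CCl4 and DEX share 1 vehicle library and 4 ANIT groups (vehicle, 12, 24 and 48 h) have 2 labelled samples but 1 column. The vehicle libraries of APAP, TAA, ANIT and MDA are labelled 0 h and the shared one Day 0. Whether the ANIT columns of those 4 groups are a sum, a mean or 1 of the 2 samples is not stated, so their counting intervals hold only if the columns are plain read counts. No group has a replicate in the tables, the sources used here do not say if the 5 rats of a group were pooled, and totals ran from 14176 miRNA reads (MDA vehicle) to 383330 (TAA 24 h).

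Hairpins of such a cluster are cut from 1 primary transcript, so their miRNAs are made together but are matured and broken down separately. A mature miRNA finds its target messages mainly through its seed, bases 2 to 8, so that miRNAs with the same seed can repress the same messages whichever cluster they come from. The miR-17/92 family is best known for driving cell proliferation and survival, with Bim among its targets in mouse and human cells. Plasma carries such miRNAs from blood cells, endothelium and injured tissue, and miR-92a-3p is abundant in red blood cells.

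All 7 matched the RefSeq table of the rat assembly GRCr8, and their mature sequences of 21 to 23 bases are shown because the seeds define the groups compared below. Capitals mark the seed. The sources used here name no build for the deposited counts, and the coordinates belong to GRCr8 alone. The seed AUUGCAC is shared by 3 of the 7, one from each cluster:
rno-miR-25-3p: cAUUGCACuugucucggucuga
rno-miR-92a-3p: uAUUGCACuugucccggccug
rno-miR-363-3p: aAUUGCACgguauccaucugu
The seed AAAGUGC is shared by one miRNA of miR-17/92 and one of miR-106b/25:
rno-miR-20a-5p: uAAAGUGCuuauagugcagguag
rno-miR-93-5p: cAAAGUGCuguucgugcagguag
The other 2 have seeds of their own among the 7:
rno-miR-19b-3p: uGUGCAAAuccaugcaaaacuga
rno-miR-106b-3p: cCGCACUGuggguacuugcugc

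The hairpins of the miR-106b/25 cluster lie inside Mcm7, a gene of the replicative helicase, on the minus strand of chromosome 12, with the mature miR-25-3p at chr12:22156652-22156673, miR-93-5p at chr12:22156894-22156916 and miR-106b-3p at chr12:22157062-22157083. In miR-17/92, on the plus strand of chromosome 15, miR-20a-5p lies at chr15:98588318-98588340, miR-19b-3p at chr15:98588486-98588508 and miR-92a-3p at chr15:98588602-98588622, with no overlapping gene in the table. On the minus strand of chromosome X, the second copy of miR-19b-3p lies at chrX:137343070-137343092, that of miR-92a-3p at chrX:137342945-137342965, and miR-363-3p at chrX:137342788-137342808. Reads of miR-19b-3p and miR-92a-3p from chromosomes 15 and X cannot be told apart. Members of a seed group differ from each other by 4 edits (miR-25-3p and miR-92a-3p, miR-20a-5p and miR-93-5p) to 7 edits (miR-25-3p and miR-363-3p), whereas miR-19b-3p is 1 edit from miR-19a-3p and miR-20a-5p is 2 edits from miR-17-5p, so a few of their reads could have been counted for the neighbour.

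The 7 miRNAs differed widely in abundance in vehicle plasma. On the scale of RPM (reads of a miRNA per 1000000 miRNA reads of the library; the lengths of the 7 are nearly equal), miR-25-3p, known in human cells as a repressor of Bim, was at 15407, 25133, 14189.5, 8818 and 11163 in the APAP, TAA, ANIT, MDA and shared CCl4 and DEX vehicle libraries. In the same order miR-92a-3p, which restrains vessel growth in mouse endothelium, was at 10462, 6805, 11805, 6067 and 9799. It was below miR-25-3p in each of the 5, by a factor that varied from library to library, and these 2 were far above the other 5 miRNAs.

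The next level was held by the remaining products of miR-106b/25. The opposite-arm product miR-106b-3p was at 1379, 1149, 994, 847 and 1205 RPM. The growth-promoting miR-93-5p was at 828, 605, 3299, 847 and 913. These overlapped, and in 4 of the 5 libraries miR-93-5p was no higher than miR-106b-3p. The ANIT vehicle stood apart for miR-93-5p alone, at 166 reads.

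The lowest 3 miRNAs overlapped each other. In the vehicle libraries of APAP, TAA, ANIT, MDA and the shared group, miR-20a-5p, a repressor of E2F transcription factors in human cells, was at 382, 212, 517, 564 and 372 RPM. In that order miR-19b-3p, which promotes lymphoma in mice, was at 127, 242, 338, 423 and 142, and miR-363-3p was at 255, 151, 159, 353 and 213. These shares rest on 5 to 84 reads and do not order the 3 firmly. Comparing the vehicles with each other by the rule of size given below called 4 of the 10 pairs for miR-93-5p, all with the ANIT vehicle on one side, and 0 to 2 of the 10 pairs for each other miRNA.

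**Figure D1:**
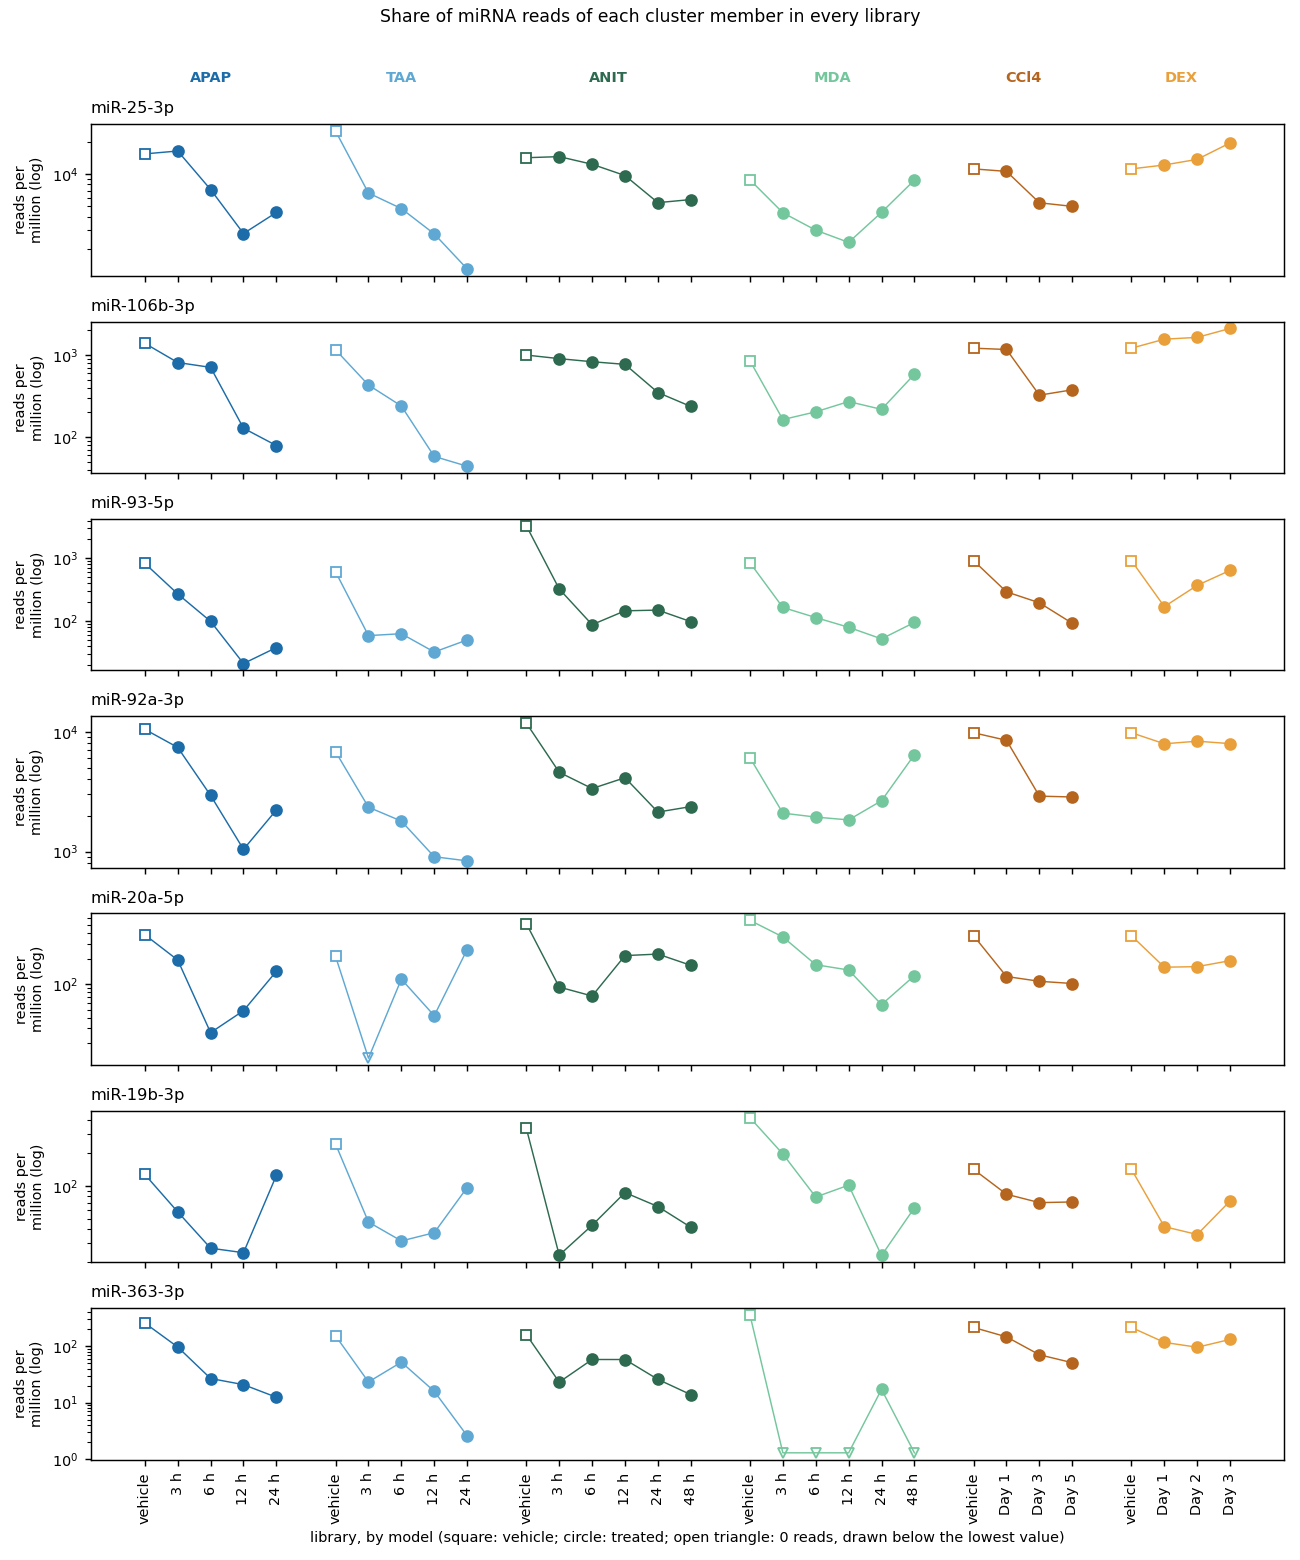
RPM (log axis) of each of the 7 miRNAs in every library, ordered by model and time; squares are vehicle libraries, circles treated libraries, and open triangles libraries with 0 reads. Each panel has its own scale; miR-93-5p lay at 605 to 3299 in the vehicle libraries and at 20.8 to 639.8 in the treated ones.

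The share of plasma miRNA reads held by the 7 together was lower at the median in treated animals. It was 1.79% to 3.43% (median 2.88%) in the 5 vehicle libraries and 0.259% to 3.06% (median 0.888%) in the 24 treated ones. The miR-106b/25 trio went from a median of 1.76% to 0.601% and the miR-17/92 trio from 1.03% to 0.287%, with overlapping ranges for both. By seed, the AUUGCAC group went from 2.61% to 0.826% and the AAAGUGC group from 0.128% to 0.0273%. The 4 hepatocyte miRNAs looked at (miR-122-5p, miR-122-3p, miR-192-5p and miR-194-5p) went at the same time from 1.57% to 4.14% of reads in the vehicle libraries to 6.33% to 71.3% in the treated ones. No spike-in count is used here, so a lower share does not show fewer molecules, and the comparisons below scale the libraries of a model together by TMM, which sets the bulk of the miRNAs level.

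Against the own vehicle library, with a value called where the ratio was at least 2 or at most 0.5 and its exact binomial 95% interval left out 1, miR-93-5p was called lower most often of the 7. A value was judged only where the miRNA reached 20 reads in some library of the model, and no p-value was possible with 1 library a group. Of 168 member values 130 met that minimum, of which 41 were called lower (all measured miRNAs: 20.5%), 3 higher (all measured miRNAs: 20.1%) and 86 neither. The lower calls were carried unequally: miR-93-5p gave 16 of the 41 from 19 measured values, miR-92a-3p 8 of 24, miR-106b-3p 7 of 24, miR-20a-5p 6 of 19, miR-25-3p 2 of 24, miR-19b-3p 2 of 14 and miR-363-3p 0 of 6. The read minimum itself shaped these counts. miR-93-5p met it in APAP and TAA through the vehicle library alone, the group where it was high, so 8 of its 16 lower calls are of that kind, as are the 2 of miR-19b-3p in DEX. Of the 3 higher calls, miR-20a-5p in TAA and miR-19b-3p in APAP met it through the very library called higher. The intervals cover counting error only.

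Set against its own background, library by library, the count of members lower was above the share of all measured miRNAs in most of the early libraries. That excess was not shared evenly: miR-93-5p was among the lower members in every APAP, TAA and ANIT library. At 3 h of APAP and 6 h of TAA it was the only one. In APAP 1, 2, 2 and 2 of 6 measured members were lower at 3, 6, 12 and 24 h, where 6.92%, 9.23%, 22.3% and 32.3% of all measured miRNAs were. In TAA 2, 1, 2 and 4 of 6 were lower, against 10.6%, 8.13%, 32.5% and 35.8%. The 2 members called higher at 24 h, 1 in each of these models, stand beside 41.5% higher in APAP and 43.9% in TAA; at 3, 6 and 12 h no member was higher, against 16.2%, 15.4% and 23.8% in APAP and 11.4%, 15.4% and 25.2% in TAA.

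In ANIT 3, 3, 2, 3 and 1 of 5 members were lower at 3, 6, 12, 24 and 48 h, against 19.5%, 23.7%, 17.8%, 24.6% and 26.3% of all measured miRNAs. No member was higher there, against 5.93%, 22%, 19.5%, 26.3% and 22%. In MDA 2, 2, 2, 0 and 0 of 3 were lower, against 27.4%, 29.5%, 27.4%, 33.7% and 29.5%, and the 1 higher call, at 48 h, stands beside 23.2% (16.8%, 18.9%, 20% and 18.9% at the earlier times).

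In CCl4 2, 0 and 1 of 7 members were lower on Day 1, 3 and 5, against 9.09%, 18.9% and 16.7%, and 0 were higher, against 6.06%, 18.2% and 18.2%. In DEX 3, 1 and 0 of 7 were lower on Day 1, 2 and 3, against 16%, 12.2% and 15.3%, and 0 were higher, against 15.3%, 17.6% and 19.8%. With 3 to 7 members a library, these shares are coarse.

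**Figure D2:**
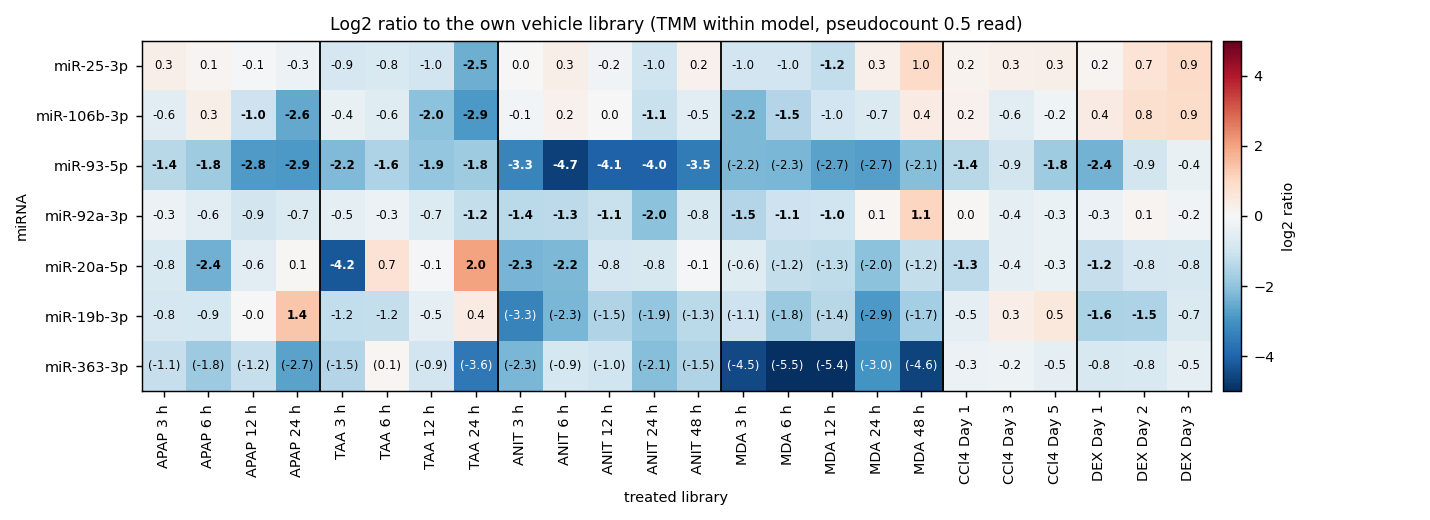
Log2 ratio to the own vehicle library of each miRNA (rows) in each treated library (columns), scaled by TMM within the model with a pseudocount of 0.5 read; bold values were called and values in brackets are of miRNAs below the read minimum in that model. The miR-93-5p row is negative in all 24 libraries, while miR-25-3p and miR-92a-3p are mostly pale.

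miR-93-5p was lower than its own vehicle in all 24 libraries, before and after scaling. In the APAP model it went from 828 RPM in vehicle to 269, 98.01, 20.8 and 37.4 at 3, 6, 12 and 24 h. In the TAA model it went from 605 to 58.1, 62.3, 31.8 and 49.6 at those times. Both hepatocellular models were thus low from the first sample on, with no return by 24 h.

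The ANIT vehicle was at 3299 RPM of miR-93-5p, and the libraries at 3, 6, 12, 24 and 48 h were at 323, 86.8, 145, 148 and 97.2. In MDA it went from 847 in vehicle to 164, 113, 78.9, 51.5 and 94.3 at the same times. All 10 cholestatic libraries were below every one of the 5 vehicle libraries on this scale.

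CCl4 took miR-93-5p from 913 RPM in vehicle to 290.4, 194 and 91.4 on Day 1, 3 and 5. DEX, against the same vehicle, gave 169, 369 and 639.8 on Day 1, 2 and 3. DEX was the model in which the value was higher at each later day, and its Day 3 library was the single treated one above a vehicle library, that of TAA.

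In ratios scaled by TMM, miR-93-5p reached its lowest in ANIT at 6 h, 27.1-fold lower (95% interval 12.2 to 75.0, 6 reads against 166). At 24 h it was 16.7-fold lower in ANIT (10.7 to 27.0), 7.67-fold in APAP (3.66 to 18.01) and 3.46-fold in TAA (1.75 to 6.86). On Day 1 it was 2.64-fold lower in CCl4 (1.94 to 3.65) and 5.29-fold lower in DEX (3.18 to 9.44). The 3 measured values that were not called were CCl4 Day 3, DEX Day 2 and DEX Day 3. The ratios of CCl4 Day 3 and DEX Day 2 lay just above the cut-off of 0.5. DEX Day 3 had the highest measured ratio, 0.77 (0.54 to 1.07). In MDA the vehicle held 12 reads, below the minimum, and the 5 ratios lay between 0.15 and 0.22.

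Because the ANIT vehicle was high, the count was also taken without that model, a choice made after seeing the data: miR-93-5p was then lower in 11 of 14 measured values, and all 7 miRNAs together in 29. The others gave 6 of 19 (miR-106b-3p), 4 of 19 (miR-92a-3p), 4 of 14 (miR-20a-5p), 2 of 19 (miR-25-3p), 2 of 14 (miR-19b-3p) and 0 of 6 (miR-363-3p). The share over all measured miRNAs was 20.5% with ANIT and is not given without it. The APAP and TAA values of miR-93-5p again met the read minimum through the vehicle alone. Against each of the 5 vehicle libraries in turn, with all libraries scaled together, miR-93-5p was called lower than all 5 in 13 of 19 libraries, miR-106b-3p in 3 of 24, miR-20a-5p in 1 of 19 and the other 4 miRNAs in 0 (all measured miRNAs: 7.33%). No member was higher than all 5 anywhere (all measured miRNAs: 11.7%).

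Of the other products of miR-106b/25, miR-25-3p differed most from miR-93-5p. It was at 16389, 7164, 2782 and 4377 RPM in APAP, 6646, 4757, 2761 and 1302 in TAA, and 14523.5, 12328, 9671, 5403 and 5774 in ANIT. After scaling, its ratios had a median of 1.07 and a range of 0.18 to 1.97. The 2 values called lower were TAA 24 h (ratio 0.18) and MDA 12 h (0.43), and none was called higher. In APAP its ratios lay between 0.82 and 1.21 and in DEX between 1.11 and 1.92, although its share in APAP at 6, 12 and 24 h was below vehicle.

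miR-106b-3p was low late in the hepatocellular models, as miR-93-5p was. It went from 1379 RPM in the APAP vehicle to 807, 704, 128 and 79.1, and from 1149 in the TAA vehicle to 429.9, 239, 58.3 and 44.3. Scaled ratios at 12 and 24 h were 0.49 and 0.17 in APAP and 0.24 and 0.14 in TAA, and all 4 were called lower. The remaining calls were ANIT 24 h (0.47), MDA 3 h (0.20, from 5 reads against 12) and MDA 6 h (0.36).

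In DEX, by contrast in direction, miR-106b-3p lay at 1550.1, 1629.9 and 2094 RPM against 1205 in vehicle, and its ratios of 1.31, 1.75 and 1.90 were not called. CCl4 was at 1161, 324 and 376, with ratios of 1.15, 0.67 and 0.86. Neither steatosis model thus gave a call for miR-106b-3p.

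In miR-17/92, miR-92a-3p was called lower mainly in the cholestasis models. It went from 11805 RPM in the ANIT vehicle to 4588, 3357, 4134, 2137 and 2373, with scaled ratios of 0.39, 0.40, 0.46, 0.24 and 0.57. In MDA it went from 6067 to 2094, 1941, 1838, 2656 and 6427, with ratios of 0.36, 0.48, 0.50, 1.06 and 2.10. The first 4 ANIT and first 3 MDA values were called lower, and the last MDA value higher (95% interval 1.66 to 2.68).

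The eighth lower call of miR-92a-3p was TAA 24 h (0.43). In APAP its ratios were 0.81, 0.67, 0.53 and 0.61, and in the 6 steatosis libraries they lay between 0.74 and 1.10. None of these 10 values was called.

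miR-20a-5p moved both ways. It had 0 reads at 3 h of TAA against 7 in vehicle, at least 2.91-fold lower with 3 reads taken for 0, and 98 reads at 24 h, a ratio of 4.26 (1.99 to 10.9). Without the 24 h library it would not have met the read minimum in TAA, which holds for the 3 h call too. Its other lower calls were APAP 6 h (0.17), ANIT 3 h and 6 h (0.18 and 0.20), CCl4 Day 1 (0.39) and DEX Day 1 (0.43). At 24 h of TAA its unscaled share of 256 RPM lay inside the vehicle range of 212 to 564. With all libraries scaled together it was at 573 against 120.1 to 303 in the 5 vehicle libraries, and it was called higher than 4 of the 5.

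miR-19b-3p was low in DEX on Day 1 and 2 (ratios 0.30 and 0.33) and high at 24 h of APAP (2.82, 1.16 to 8.30, 30 reads against 6), the one APAP library in which it reached the read minimum. Its highest count in any library was 37 reads. In ANIT and MDA it stayed under the read minimum, with ratios of 0.07 to 0.35 in ANIT and 0.13 to 0.48 in MDA.

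miR-363-3p reached the minimum in CCl4 and DEX only, where its 6 ratios of 0.56 to 0.82 were not called. In MDA it had 0 reads at 3, 6, 12 and 48 h against 5 in vehicle, at least 3.45-, 6.89-, 6.34- and 3.78-fold lower with 3 reads taken for 0. With 5 vehicle reads, these bounds rest on very few molecules.

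The ratio of 2 miRNAs within a library does not depend on scaling, and it separated miR-93-5p from miR-25-3p, which come from the same transcript. The vehicle libraries of APAP, TAA, ANIT, MDA and the shared group held 5.37, 2.41, 23.2, 9.60 and 8.17 reads of miR-93-5p per 100 of miR-25-3p. The 24 treated libraries held 0.704 to 3.81 (median 1.66), 15 of them below the lowest vehicle and 9 inside the vehicle range. Each treated library except TAA 24 h was below its own vehicle.

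By the same rule of size, applied to the odds ratio with its exact 95% interval, the miR-93-5p to miR-25-3p ratio was lower in 17 of 24 libraries and higher in 0. For every measured miRNA set against miR-25-3p the share lower was 20.4% and the share higher 24.7% (with a normal-approximation interval). The member pairs, here and below, were counted without the read minimum that this background has. The 17 thus include 24 and 48 h of MDA, where miR-93-5p was below that minimum. The change was 33.0-fold at 6 h of ANIT (95% interval 14.7 to 91.7), 7.17-fold at 12 h of APAP (2.99 to 20.9) and 5.88-fold on Day 1 of DEX (3.51 to 10.5). The 7 uncalled libraries were the 4 of TAA, whose vehicle had the lowest ratio, and MDA at 3, 6 and 12 h. Without ANIT the count was 12 of 19.

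DEX Day 2, DEX Day 3 and CCl4 Day 3, uncalled for miR-93-5p after TMM, were called here at 3.04-fold (2.26 to 4.12), 2.49-fold (1.78 to 3.56) and 2.27-fold lower (1.57 to 3.35). The companion pair of that cluster, miR-106b-3p to miR-25-3p, was lower in 2 libraries (APAP 24 h, 4.95-fold, and TAA 12 h, 2.17-fold) and higher in 0, with 15 of 24 inside the vehicle range of 4.57 to 10.8 per 100. Within 1 cluster, then, one pair was called in most libraries and the other in few.

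**Figure D3:**
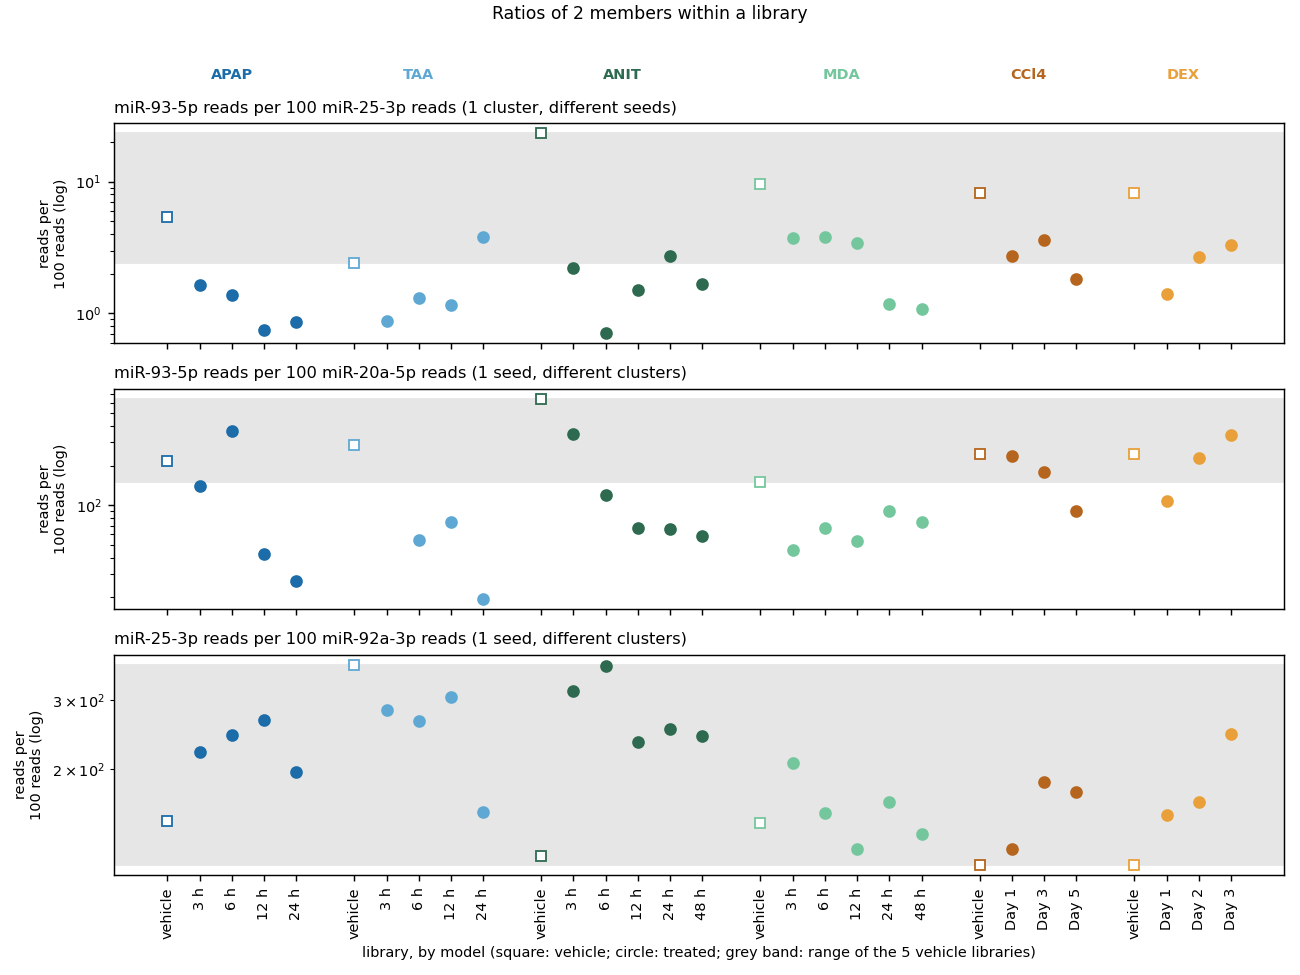
Reads of one miRNA per 100 reads of another in every library (log axes) for miR-93-5p to miR-25-3p, miR-93-5p to miR-20a-5p and miR-25-3p to miR-92a-3p; squares are vehicle libraries, circles treated ones, and the grey band is the range of the 5 vehicle libraries. Of the treated libraries 15 lie below the band in the top panel, 17 in the middle panel (TAA 3 h, with 0 reads of miR-20a-5p, is not drawn) and 0 in the bottom panel.

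Sharing a seed did not make miR-93-5p and miR-20a-5p move together either. Vehicle libraries held 150 to 638 reads of miR-93-5p per 100 of miR-20a-5p, and treated ones 19.4 to 367 (median 82.5), with 17 below the vehicle range. The ratio was called lower in 9 of 24 libraries and higher in 0 (every measured miRNA against miR-20a-5p: 8.68% lower, 38.7% higher). It was 14.3-fold lower at 24 h of TAA (5.00 to 46.2), 10.7-fold at 48 h of ANIT (3.53 to 35.4) and 7.99-fold at 24 h of APAP (3.00 to 23.2). Without ANIT 5 of 19 were called.

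The other shared-seed pair, miR-25-3p to miR-92a-3p, stayed inside the vehicle range of 114 to 369 per 100 in all 24 libraries. Against the own vehicle it was nonetheless higher in 5 libraries and lower in 1 (every measured miRNA against miR-92a-3p: 35.2% higher, 11.2% lower). The higher calls were 4 of the 5 ANIT libraries, between 2.02 and 3.05, and DEX Day 3 at 2.15, and the lower one TAA 24 h at 0.42. Without ANIT 1 higher call and 1 lower call were left.

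miR-363-3p to miR-92a-3p, the third pair of this seed, was lower in 5 libraries and higher in 0, and 14 of 24 lay below the vehicle range of 1.35 to 5.81 per 100. Those 5 were APAP 24 h and MDA at 6, 12, 24 and 48 h. All rest on 0 to 3 reads of miR-363-3p in the treated library.

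Within miR-17/92, miR-20a-5p to miR-92a-3p was lower in 5 libraries and higher in 2, and miR-19b-3p to miR-92a-3p lower in 3 and higher in 2. At 24 h of TAA both were higher, 9.79-fold (4.46 to 25.5) and 3.24-fold (1.45 to 8.20), and at 24 h of APAP miR-19b-3p was 4.60-fold higher (1.86 to 13.6). At 24 and 48 h of MDA both were lower, miR-20a-5p 4.30- and 4.73-fold and miR-19b-3p 8.05- and 7.09-fold. ANIT differed from MDA at 24 h, with miR-20a-5p 2.41-fold higher and miR-19b-3p not called. Every measured miRNA against miR-92a-3p has the background given above.

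With the models as replicates, a p-value could be had for the change common to them. edgeR's quasi-likelihood test was fitted over all miRNAs with the vehicle set as a block, and p-values were adjusted by Benjamini-Hochberg over all miRNAs tested. The fits share the vehicle libraries, so they are not independent of each other. With 4 or 6 models a fit, the p-values rest in large part on a spread pooled over all miRNAs. They say less of how far a single miRNA varied between models. miR-93-5p was the single member called lower at each time, although every member tested had a negative change. miR-19b-3p and miR-363-3p were under the read minimum of the fits at the earlier times and were not tested there.

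At 3 h, in APAP, TAA, ANIT and MDA, miR-93-5p fell by 2.21 on the log2 scale (SE 0.44, edgeR adjusted p = 0.0279, below vehicle in 4 of 4 models), 1 of 5 members tested (all 99 tested: 3.03% lower, 3.03% higher). At 6 h it fell by 2.54 (SE 0.54, edgeR adjusted p = 0.00283, 4 of 4 models; all 104 tested: 6.73% lower, 11.5% higher). At 12 h it fell by 2.75 (SE 0.54, edgeR adjusted p = 0.00238, 4 of 4 models; all 104 tested: 9.62% lower, 17.3% higher). In these 3 fits miR-93-5p met the read minimum (10 reads in 4 libraries) only with the vehicle libraries, the group where it was high. The APAP, TAA, ANIT and MDA vehicles held 39, 20, 166 and 12 reads, and the 12 h libraries 6, 6, 10 and 7. At 24 h or Day 1, in all 6 models, miR-93-5p fell by 2.37 (SE 0.54, edgeR adjusted p = 0.0394, 6 of 6 models; all 134 tested: 1.49% lower, 2.99% higher).

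These calls leaned on single models, the direction did not. With each model left out in turn the log2 change at 24 h or Day 1 lay between -2.61 and -1.87, and the call was lost without APAP (edgeR adjusted p = 0.169), ANIT (0.0950) or MDA (0.153). The 3 h call was lost without TAA (edgeR adjusted p = 0.0982), ANIT (0.172) or MDA (0.0543) and also without the block (0.0665), the 6 h call without MDA (0.0517), and the 12 h call without APAP (0.0758). Without ANIT miR-93-5p fell under the read minimum of the 12 h fit.

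**Figure D4:**
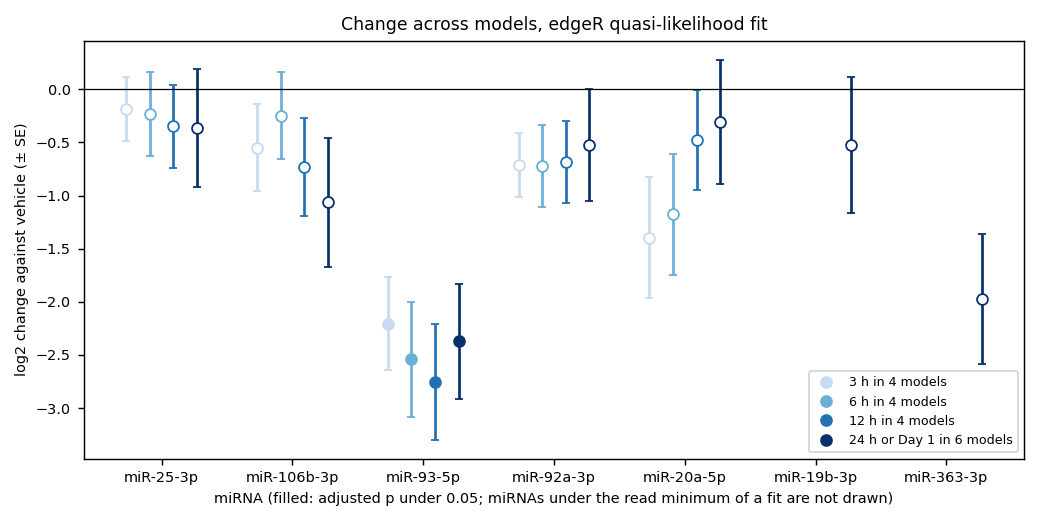
Log2 change against vehicle with its SE from the edgeR quasi-likelihood fits at 3, 6 and 12 h (4 models) and at 24 h or Day 1 (6 models); filled points have an adjusted p under 0.05, and miRNAs under the read minimum of a fit are not drawn. The 4 points of miR-93-5p lie between -2.75 and -2.21 and are the filled ones.

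None of the other members passed this test, and their values were smaller than that of miR-93-5p in the same fit. The nearest, miR-363-3p, was tested at 24 h or Day 1 alone, where its log2 change was -1.98 (SE 0.61, edgeR adjusted p = 0.0639), below vehicle in 6 of 6 models. miR-20a-5p was at -1.40 at 3 h (SE 0.57, edgeR adjusted p = 0.206), -1.18 at 6 h, -0.47 at 12 h and -0.30 at 24 h or Day 1. miR-92a-3p lay between -0.72 and -0.52 at the 4 times, miR-106b-3p between -1.06 and -0.25, and miR-25-3p between -0.36 and -0.18.

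All members tested had a negative change at each time, where 50.5% to 54.5% of all tested miRNAs did. The medians over members were -0.71, -0.72, -0.68 and -0.52 at 3, 6, 12 and 24 h or Day 1, against -0.01, -0.06, -0.10 and -0.22 over all tested miRNAs. With total counts in place of TMM the medians over all miRNAs moved to -0.51, -1.17, -1.78 and -1.33 at these times, and miR-93-5p was at -2.65, -3.60, -4.35 and -3.65, below that median each time.

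By injury type at 24 h or Day 1, with 2 models per type in 1 edgeR fit, the hepatocellular models had 3 members lower and 0 higher of 7 tested (all 134 tested: 32.1% lower, 26.9% higher). miR-363-3p was lower by a log2 change of -3.04 (SE 1.00, edgeR adjusted p = 0.00574), miR-106b-3p by -2.56 (SE 0.76, edgeR adjusted p = 0.00221) and miR-93-5p by -2.17 (SE 0.78, edgeR adjusted p = 0.0118), all below vehicle in APAP and in TAA. The miR-363-3p call rests on 3 reads at 24 h of APAP against 12 in vehicle, and 1 read at 24 h of TAA against 5. In both models miR-363-3p was under the read minimum of the ratios. It met the minimum of this fit only through the APAP and shared vehicles, CCl4 Day 1 and DEX Day 1. Without APAP the call of miR-93-5p was lost at -0.99 (edgeR adjusted p = 0.358) and that of miR-106b-3p at -2.07 (edgeR adjusted p = 0.0516). Without TAA that of miR-363-3p was lost (edgeR adjusted p = 0.0807). With 2 models per type, the p-values of this fit rest largely on a spread pooled over all miRNAs. They say little of how far a single miRNA varied between the 2 models of a type.

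In the cholestasis models miR-93-5p was lower, at -3.06 (SE 0.82, edgeR adjusted p = 0.00611), and the other 6 were not called (all 134 tested: 2.99% lower, 8.21% higher). That call was lost without ANIT, at -1.86 (edgeR adjusted p = 0.465), and without CCl4 (edgeR adjusted p = 0.146). In the steatosis models 0 of the 134 miRNAs were called in either direction by edgeR (4 at an unadjusted p under 0.05, and 1 by DESeq2), so no member could be called. miR-93-5p was at -1.81 there (SE 0.81, edgeR adjusted p = 0.965).

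Tests of the difference between types gave 2 member calls. miR-19b-3p differed between hepatocellular injury and cholestasis by 3.07 on the log2 scale (SE 1.14, edgeR adjusted p = 0.0418; all 134 tested: 5.97% higher, 13.4% lower), with 1.14 in the first and -1.93 in the second, neither of them called by itself. miR-106b-3p differed between hepatocellular injury and steatosis by -2.84 (SE 1.17, edgeR adjusted p = 0.0447; all 134 tested: 23.1% lower, 16.4% higher), with -2.56 and 0.27 in the types. Leaving out a model ended both calls in most cases: the miR-19b-3p difference held without APAP alone (edgeR adjusted p = 0.0433) and was lost with total counts (2.43, edgeR adjusted p = 0.173), and the miR-106b-3p difference held in 0 of 6 such fits (edgeR adjusted p 0.0550 to 0.151).

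No difference between types was called for miR-93-5p. Its log2 difference was 0.90 between hepatocellular injury and cholestasis (SE 1.10, edgeR adjusted p = 0.571), -0.36 between hepatocellular injury and steatosis (SE 1.13) and -1.25 between cholestasis and steatosis (SE 1.17; all 134 tested: 0% lower, 0% higher). SEs of this size leave room for differences of several-fold in either direction.

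The clusters and seed families hold other miRNAs, of which 20 were looked for and 16 were listed in some table. One reached the read minimum, miR-17-5p, which has the seed of miR-93-5p and 3 edits from it and is the first product of its cluster:
rno-miR-17-5p: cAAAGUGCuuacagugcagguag
Its RPM values were 403, 272, 497, 353 and 363.2 in the vehicle libraries of APAP, TAA, ANIT, MDA and the shared group, and 11.3 to 159 (median 53.2) in the 24 treated ones, so the groups did not overlap.

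miR-17-5p was measured in 11 libraries of ANIT, CCl4 and DEX and was lower in 9 and higher in 0 of them, 8 of the 9 in ANIT and DEX, where it met the minimum through the vehicle alone (the background is the 20.5% lower and 20.1% higher given above). At 3 h of ANIT it was 10.8-fold lower (2.68 to 93.7, from 2 reads against 25) and on Day 2 of DEX 3.15-fold lower (1.80 to 5.88). At 24 h or Day 1 its log2 change over the 6 models was -1.24 (SE 0.47, edgeR adjusted p = 0.0983). The highest counts of the unmeasured ones with a seed of a member were 19 reads for miR-92b-3p, 18 for miR-106b-5p, 15 for miR-19a-3p, 6 for miR-32-5p and 5 for miR-20b-5p. The opposite arm miR-93-3p reached 5 reads.

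The pattern over libraries most like that of miR-93-5p belonged to a miRNA of another family. Among 82 candidates, the smallest mean absolute difference of log2 ratio to the own vehicle over the 24 treated libraries was that of miR-16-5p (0.74), then let-7d-5p (1.18), and the nearest member was miR-19b-3p (1.35). For miR-363-3p the 2 nearest were again miR-16-5p (1.00) and let-7d-5p (1.15). miR-25-3p was nearest to miR-24-3p (0.50), miR-328a-3p (0.55) and, among members, miR-106b-3p (0.54).

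miR-106b-3p was nearest to miR-328a-3p (0.50) and miR-126a-3p (0.53), miR-92a-3p to miR-191a-5p (0.53) and let-7i-5p (0.56), miR-20a-5p to miR-103-3p (0.72) and let-7g-5p (0.79), and miR-19b-3p to let-7g-5p (0.87) and miR-152-3p (0.91). Among members miR-20a-5p and miR-19b-3p were nearest to each other (0.86). The libraries share vehicles and depth, so these distances describe the 24 libraries and carry no test.

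miR-16-5p is abundant in red blood cells, and blood-cell markers were set beside the members. The members themselves did not move as one: miR-93-5p was lower in 16 of 19 measured values and miR-25-3p in 2 of 24. The 5 erythroid markers listed (miR-451-5p, miR-486, miR-144-3p, miR-144-5p and miR-16-5p) summed to 3.15% to 6.59% of reads in the vehicle libraries and 0.0840% to 6.79% in the treated ones, with 3 to 5 of the 5 detected and only miR-144-3p and miR-144-5p at 0 anywhere. By the rule of size miR-16-5p was lower in 22 of 24 libraries, miR-451-5p in 15 and miR-486 in 11, and none was higher. In the edgeR fits miR-16-5p fell by 1.44, 1.94, 1.94 and 1.91 on the log2 scale at 3, 6, 12 and 24 h or Day 1 (edgeR adjusted p = 0.0455, 0.00331, 0.00441 and 0.04996). miR-451-5p was called lower at 3, 6 and 12 h but not at 24 h or Day 1 (edgeR adjusted p = 0.103). miR-486 was called lower at 6 and 12 h, but not at 3 h (edgeR adjusted p = 0.0626) or at 24 h or Day 1 (0.117).

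In DEX on Day 2 and 3 the erythroid sum was 5.85% and 6.79%, inside and above the vehicle range. On those days miR-93-5p was not called lower than vehicle after TMM, although it was called lower against miR-25-3p. Unscaled, as this sum is, its ratio was 0.40 on Day 2, called lower, and 0.70 on Day 3, not called. In CCl4 on Day 3, where miR-93-5p was also not called after TMM, the erythroid sum was 1.21%, below the vehicle range. At 48 h of MDA the median log2 ratio of the 3 erythroid markers measured was 0.03, while miR-93-5p was at a ratio of 0.22, from 6 reads against 12, and lower than each of the 5 vehicle libraries. The 6 leukocyte markers summed to 0.529% to 0.830% in vehicle and 0.0104% to 0.582% in treated libraries, and the 4 platelet and endothelial ones to 1.49% to 2.10% and 0.0931% to 2.05%. These sums are unscaled, and by the rule of size the single markers differed. miR-150-5p was lower in 20 of 24 libraries, miR-223-3p lower in 14 and higher in 1, and miR-223-5p lower in 2 and higher in 3 of 10. miR-191a-5p was lower in 12 of 24, miR-126a-3p lower in 8 and higher in 3, and miR-221-3p lower in 0 and higher in 4. In the ANIT vehicle, where miR-93-5p was high, the erythroid, leukocyte and platelet sums were 6.38%, 0.650% and 1.57%, inside the range of the other vehicles. The part of blood-cell RNA in the lower values of miR-93-5p was not tested, and in plasma, fewer contributing cells and less RNA per cell cannot be told apart.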

How the data were processed

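Small RNA of rat plasma was sequenced in 33 labelled samples, which the tables hold as 29 libraries. The deposited counts are whole reads per mature miRNA, 326 to 388 miRNAs a table; the authors' counting tool, miRNA release and genome build are not named in the labels or headers. The authors also deposited a normalized signal, used here as an alternative; the submitters' processing notes name DESeq 1.28.0, and the sheet is labelled as normalized counts. The 2 copies of the CCl4 and DEX vehicle differ in 36 miRNAs by at most 4 reads and were counted as 1 library.

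Ratios to the own vehicle were computed on counts scaled by TMM within a model, with exact binomial 95% intervals, for miRNAs with 20 reads in some library of the model. Where no read was found, 3 reads were taken as the upper limit, 0.000783% to 0.0212% of a library. Joint changes were tested with edgeR 4.0.16 (quasi-likelihood, vehicle set as a block, at least 10 reads in at least 4 libraries) in R 4.3.3, with Benjamini-Hochberg adjustment over all miRNAs tested; SEs were derived from the F statistic and are approximate. DESeq2 1.42.0 was an alternative, and Python 3.11.15 with SciPy 1.17.1 did the rest. Both steps were tested on simulated data. P-values measure a spread between models that is in large part pooled over all miRNAs, and not the spread between rats.

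The 7 members were named in full, their cluster and seed relatives where they reached the read minimum, and beside each member the 2 miRNAs with the nearest log2 ratios. The members and lists were chosen with earlier results of these data known. Alternatives were other scalings, thresholds, read minimums, tools and references, and each model left out in turn.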

Additional observations from a re-analysis of the deposited data

Results flagged for a closer look

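In the ANIT vehicle library miR-93-5p stood at 3299 RPM, far from the other 4 vehicle libraries at 605 to 913. Its gap to the nearest of them was 0.886 of the whole range, above the Dixon critical value of 0.71. Both ends of the range were looked at for each of the 7 miRNAs, and chance gives such a value in about 1 of 20 groups. The 5 ANIT ratios of miR-93-5p all rest on this library, and its cause was not tested.

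The log2 change of miR-19b-3p differed between hepatocellular injury and cholestasis by 3.07 (edgeR adjusted p = 0.0418), higher in the first. The log2 change of miR-106b-3p differed between hepatocellular injury and steatosis by -2.84 (edgeR adjusted p = 0.0447), lower in the first. Both come from a test of the difference itself with 2 models per injury type, with p-values that rest largely on a spread pooled over all miRNAs. With a model left out, the miR-19b-3p difference held in 1 of 6 fits and the miR-106b-3p difference in 0 of 6. The miR-19b-3p difference was also lost with total counts, and this miRNA was under the read minimum of the ratios in ANIT and MDA.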

How the results depend on the processing

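Member values lower than the own vehicle numbered 92 with total counts, 64 with total counts without miR-122-5p and miR-192-5p, 26 with a ratio of 3, 24 with 50 reads and 17 against each of the 5 vehicle libraries. Values higher numbered 0, 8, 1 and 0 with total counts, a ratio of 1.5, a ratio of 3 and each of the 5 vehicles. Apart from the comparison with each of the 5 vehicles, shares over all measured miRNAs are not given for these settings. The counts therefore describe the settings and not the members. Within-library pairs called rose from 51 to 81 against the vehicle range.

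In the joint fits 1 member, miR-93-5p, was called at each time. At 24 h or Day 1 the count was 2 with total counts, DESeq2 or no low-count filter. At 3 h it was 2 with total counts, with or without those hepatocyte miRNAs, 2 with no filter and 0 without the vehicle block. At 6 h it was 3 with both total-count scalings, and at 12 h 5 and 2. Over all miRNAs, total counts called 6 of 99 lower at 3 h, 36 of 104 at 6 h and 55 of 104 at 12 h. Without those hepatocyte miRNAs they called 6 of 99, 21 of 104 and 17 of 104. At 24 h or Day 1 total counts called 30 of 134 lower, DESeq2 19 of 134 and no filter 13 of 264. Leaving out each model gave 0 to 1 members called at every time. By injury type, total counts called 73 of 134 miRNAs lower in hepatocellular injury, 27 in cholestasis and 0 in steatosis. The 6 calls by injury type became 10 with total counts, without the miR-19b-3p difference, and 2 to 5 with a model left out, an alternative added after seeing the data. These are not all the same calls: without APAP 3 of the 5 are of miR-20a-5p, higher in hepatocellular injury (2.88, edgeR adjusted p = 0.0115) and in its differences from cholestasis and steatosis.

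Uncalled changes that turned sign with total counts were miR-19b-3p (-0.69) and miR-20a-5p (-0.62) in hepatocellular injury, miR-25-3p in cholestasis (-1.20) and miR-20a-5p between cholestasis and steatosis (-0.70). With a model left out, miR-25-3p ranged from -0.62 to 0.0247 at 24 h or Day 1 and from -0.39 to 0.00792 at 3 h. In cholestasis miR-106b-3p ranged from -0.97 to 0.21, miR-25-3p from -0.85 to 1.16 and miR-92a-3p from -1.93 to 0.98, and in steatosis miR-92a-3p from -0.26 to 0.0400. Differences between hepatocellular injury and cholestasis ranged from -1.52 to 1.37 for miR-92a-3p and from -0.0546 to 2.12 for miR-93-5p, and against steatosis from -1.08 to 0.83 for miR-93-5p. Between cholestasis and steatosis they ranged from -0.99 to 0.99 for miR-25-3p and from -1.80 to 1.08 for miR-92a-3p. The cause was not tested.

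No paired analysis was possible because the 4 ANIT groups that share replicate numbers 1 and 2 have 1 column each, with no number. Low depth limits miR-363-3p, miR-19b-3p, miR-93-5p and miR-20a-5p, with 125, 197, 392 and 413 reads over all treated libraries.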
